A study of Mus musculus with 12 samples.

Results

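The 9 genes described here encode the core of transforming growth factor beta (TGF-beta) signalling and its nuclear repressors. They are the ligand gene Tgfb1, the receptor genes Tgfbr1 and Tgfbr2, the Smad genes Smad2, Smad3, Smad4 and Smad7, and the co-repressor genes Ski and Skil. They were taken by symbol from the 53656 gene rows of each library, all 9 were found, and all 9 passed the filter on low counts. The libraries hold messenger RNA of mouse thymocytes, the T cells that develop in the thymus, from mice with the Zfp148 and Zfp281 genes flanked by loxP sites on both alleles (Zfp148 fl/fl and Zfp281 fl/fl). Zfp148 and Zfp281 are related zinc finger transcription factors known to bind G-rich DNA. The double knockout (dKO) carries Cd4-Cre, a transgene in which Cd4 regulatory sequence drives Cre recombinase in developing T cells, and the control (Ctrl) carries the same floxed alleles without it, so that an effect of Cre itself and the loss of the genes cannot be told apart.

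There were 12 libraries in 4 groups of 3, which are dKO ImCD8, Ctrl ImCD8, dKO ImCD4 and Ctrl ImCD4. ImCD8 cells were sorted as CD8+ CD4- thymocytes that were TCRb+, CD69+ and CD44low. ImCD4 cells were sorted as CD4+CD8- thymocytes that were CD69+, CD44low and H2-Kb-. CD69 marks recently stimulated thymocytes, and H2-Kb is a class I molecule that increases as thymocytes mature. The mice are of an age and number not given in the sources used here.

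On GRCm38 (mm10), with GENCODE identifiers, the genes lie as follows. Tgfb1 (ENSMUSG00000002603.15) spans chr7:25687002-25705077 on the plus strand, Tgfbr1 (ENSMUSG00000007613.15) chr4:47353222-47414931 on the plus strand and Tgfbr2 (ENSMUSG00000032440.13) chr9:116084293-116175360 on the minus strand. Smad3 (ENSMUSG00000032402.12) spans chr9:63646767-63757994 on the minus strand, Ski (ENSMUSG00000029050.15) chr4:155154075-155222592 on the minus strand and Skil (ENSMUSG00000027660.16) chr3:31095058-31122577 on the plus strand. Smad2 (ENSMUSG00000024563.16), Smad4 (ENSMUSG00000024515.13) and Smad7 (ENSMUSG00000025880.11) are on chromosome 18. No exon of a member overlaps an exon of another annotated gene.

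In the TGF-beta pathway, the secreted ligand binds the type II receptor TGFBR2, which recruits and phosphorylates the type I receptor TGFBR1. TGFBR1 phosphorylates SMAD2 and SMAD3, which join SMAD4 and act on genes in the nucleus, while SMAD7, itself a product of a target gene, blocks the receptors. SKI and SKIL (also called SnoN) bind the Smad complex on DNA and bring in co-repressors, and Skil is in turn a known target gene of the pathway. In the thymus the pathway is known for its part in the development of regulatory T cells and in supporting the CD8 lineage.

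RefSeq promoters on GRCm38.p6 were at hand for 5 of the 9 members, namely Tgfb1, Tgfbr1, Tgfbr2, Smad3 and Ski. The 250 bases before the start of Tgfbr2 and of Smad3 are shown because these genes were higher in dKO ImCD4 cells, and those of Tgfb1 because they hold the most G-rich stretches of the 5. Capitals mark GGGGAGGG or GGGGNGGGG on either strand, and the letters may overlap.
Tgfbr2, chr9:116175364-116175613, minus strand: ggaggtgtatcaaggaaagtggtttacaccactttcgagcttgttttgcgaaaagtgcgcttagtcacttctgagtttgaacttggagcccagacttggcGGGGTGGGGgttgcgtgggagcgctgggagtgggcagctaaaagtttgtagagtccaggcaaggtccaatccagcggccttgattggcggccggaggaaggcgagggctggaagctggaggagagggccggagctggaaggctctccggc
Smad3, chr9:63757995-63758244, minus strand: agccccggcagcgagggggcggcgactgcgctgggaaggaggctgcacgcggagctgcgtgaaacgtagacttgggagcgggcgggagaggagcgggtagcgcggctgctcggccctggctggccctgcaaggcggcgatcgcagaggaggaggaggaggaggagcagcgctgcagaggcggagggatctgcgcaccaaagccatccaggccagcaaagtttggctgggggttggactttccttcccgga
Tgfb1, chr7:25686752-25687001, plus strand: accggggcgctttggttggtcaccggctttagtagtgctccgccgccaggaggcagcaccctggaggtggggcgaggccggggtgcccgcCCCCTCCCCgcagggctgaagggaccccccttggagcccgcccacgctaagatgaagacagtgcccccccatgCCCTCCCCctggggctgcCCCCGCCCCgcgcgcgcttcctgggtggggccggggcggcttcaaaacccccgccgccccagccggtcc
The Tgfbr2 window holds 1 such stretch, the Smad3 window 0 and the Tgfb1 window 3. Of 32851 RefSeq promoter windows of the same length, 9.69% held GGGGAGGG and 20.6% held GGGGNGGGG. The GC box GGGCGG occurs 0 times in the Tgfbr2 window, 2 times in the Smad3 window and 5 times in that of Tgfb1. It was found in 32.7% of all windows. The Smad box CAGACA is in none of the 3 windows printed and in 17.1% of all windows. These matches describe the letters only and say nothing of binding.

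Gene counts per library ran from 7315833 to 10943143. The titles and the genotype labels of the 6 ImCD8 libraries are opposite: those titled dKO are labelled Cd4-Cre negative and those titled Ctrl are labelled Cd4-Cre+. The targeted genes went with the titles, and each direction given for dKO in ImCD8 rests on the titles. Zfp148 averaged 54.9 ± 8.70 CPM in dKO ImCD8 cells and 165 ± 4.84 CPM in Ctrl ImCD8 cells, and 66.5 ± 3.13 CPM in dKO ImCD4 cells and 180.2 ± 3.01 CPM in Ctrl ImCD4 cells (SD, n = 3 each). Zfp281 averaged 12.8 ± 2.36 CPM in dKO ImCD8 cells and 119 ± 7.93 CPM in Ctrl ImCD8 cells, and 18.6 ± 2.62 CPM in dKO ImCD4 cells and 486 ± 65.6 CPM in Ctrl ImCD4 cells. CPM is the usual scale of counts relative to library size, here the TMM-scaled library size. The sorted populations carried their defining markers: Cd8a averaged 1769 CPM in dKO ImCD8 and 1626 CPM in Ctrl ImCD8 cells, against 63.7 CPM in dKO ImCD4 and 53.4 CPM in Ctrl ImCD4 cells, and Zbtb7b, the regulator of the CD4 lineage, was at 0.111 CPM and 0.0728 CPM in dKO and Ctrl ImCD8 cells and at 165 CPM and 291 CPM in dKO and Ctrl ImCD4 cells. The third principal component, with 5.31% of the variance, set replicate 3 of each group apart from the rest, and the values of the members without these 4 libraries are given beside the results or, for the rest, in a paragraph of their own.

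Loss of Zfp148 and Zfp281 went with changes of 3 of the 9 genes in ImCD4 cells and of none by the test in ImCD8 cells. In dKO ImCD4 cells Tgfbr2 and Smad3 were higher than in Ctrl ImCD4 cells, by 1.34-fold and 1.39-fold, and Skil was lower by 1.57-fold. Of all 13383 genes tested with edgeR's quasi-likelihood test, 13.4% passed an adjusted p of 0.05 in ImCD4 cells (7.26% higher and 6.16% lower) and 6.14% in ImCD8 cells. In ImCD8 cells no member passed after adjustment with edgeR, while DESeq2 and limma-voom each called 1, Tgfbr2. The median log2 fold change over the 9 members was 0.15 in ImCD4 cells and 0.07 in ImCD8 cells, beside 0.02 and 0.01 over all genes tested. RNA of sorted populations was measured in bulk, so fewer cells that express a gene and less RNA per cell cannot be told apart.

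**Figure D1:**
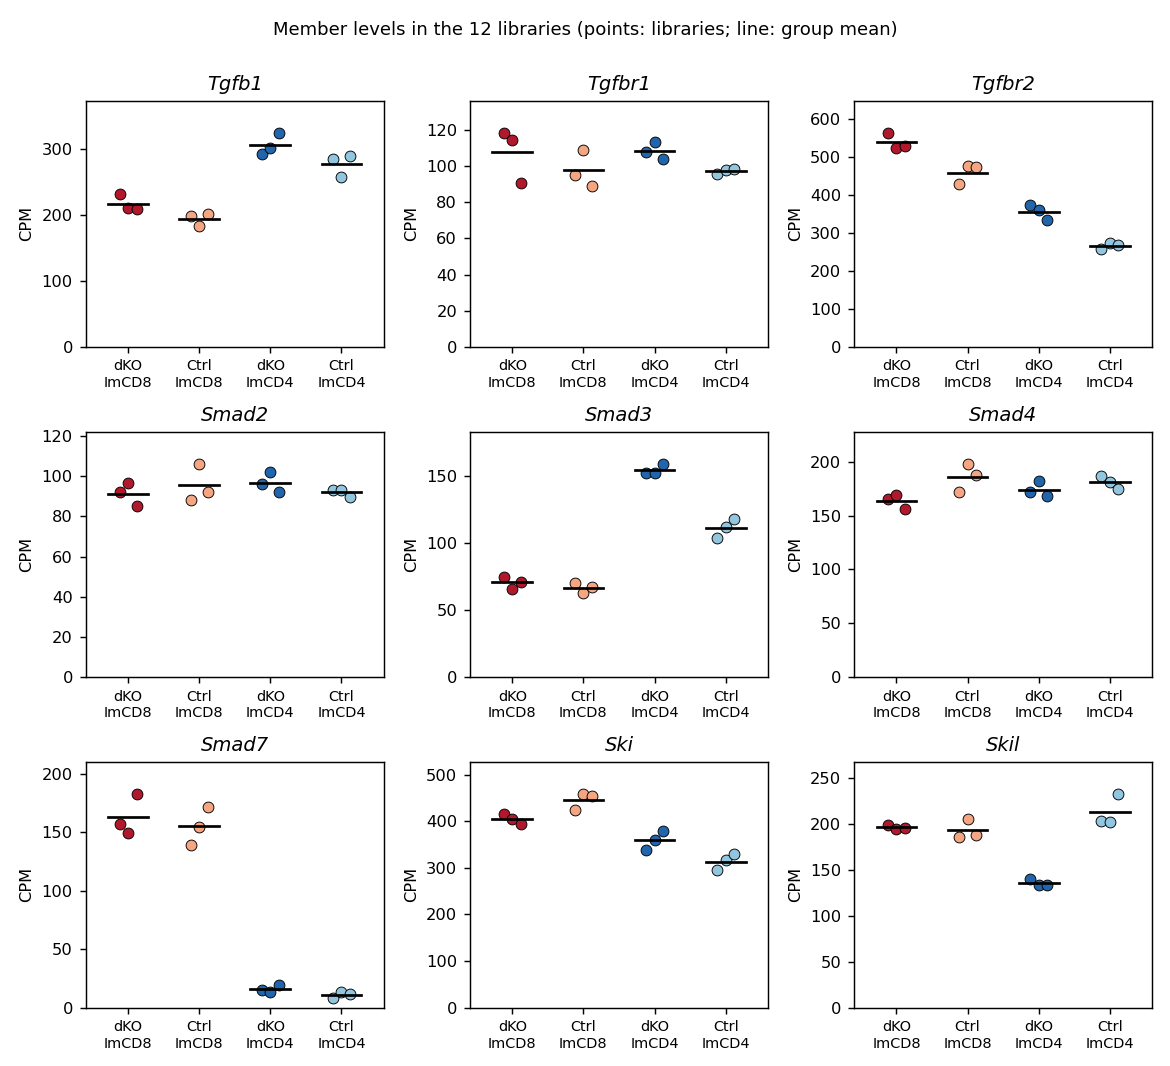
Levels of the 9 genes in CPM (y axis, linear from 0) in the 12 libraries, with 1 panel for each gene and the groups dKO ImCD8, Ctrl ImCD8, dKO ImCD4 and Ctrl ImCD4 along the x axis; points are libraries and lines are group means. Smad7 lies between 139 and 182 CPM in the ImCD8 libraries and between 8.01 and 19.0 CPM in the ImCD4 libraries, and Skil lies at 133 to 139.8 CPM in dKO ImCD4 cells against 202 to 232 CPM in Ctrl ImCD4 cells.

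Tgfb1, which encodes the ligand TGF-beta 1, had 232, 211 and 209 CPM in dKO ImCD8 cells, against 198, 183 and 202 CPM in Ctrl ImCD8 cells. In dKO ImCD4 cells it had 292, 302 and 324 CPM, against 285, 257 and 289.6 CPM in Ctrl ImCD4 cells. In both populations the dKO libraries lay above the Ctrl libraries without overlap, yet neither difference passed the test. The log2 fold change was 0.16 ± 0.07 (SE; 95% interval 0.00 to 0.31; adjusted p = 0.259) in ImCD8 cells and 0.14 ± 0.07 (-0.01 to 0.30; adjusted p = 0.216) in ImCD4 cells.

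Tgfbr2 encodes the ligand-binding type II receptor. It had 562, 524 and 529 CPM in dKO ImCD8 cells, against 427, 475 and 473 CPM in Ctrl ImCD8 cells. It had 373, 361 and 333 CPM in dKO ImCD4 cells, against 258, 273 and 267 CPM in Ctrl ImCD4 cells. The dKO libraries were the higher ones in both populations, with no overlap. In ImCD4 cells the log2 fold change was 0.42 ± 0.07 (adjusted p = 0.000828), and it was 0.47 with an adjusted p of 0.00112 without the 4 libraries that stood apart. In ImCD8 cells it was 0.23 ± 0.07 with a 95% interval of 0.09 to 0.38, and the adjusted p of 0.0573 missed the threshold. That call depends on the procedure: DESeq2 gave Tgfbr2 in ImCD8 cells an adjusted p of 0.0171, limma-voom 0.0427, no filter 0.0367, a stricter filter 0.0412 and a term for the 4 libraries that stood apart 0.0258, while over all 15 alternatives the adjusted p ran from 0.0171 to 0.236.

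Tgfbr1, the gene of the type I receptor, had 118, 114 and 90.7 CPM in dKO ImCD8 cells, against 95.1, 109 and 88.8 CPM in Ctrl ImCD8 cells. It had 108, 113 and 104 CPM in dKO ImCD4 cells, against 95.7, 97.8 and 98.7 CPM in Ctrl ImCD4 cells. The groups overlapped in ImCD8 cells and not in ImCD4 cells, where the dKO libraries were higher. Neither difference passed the test, with log2 fold changes of 0.14 (95% interval -0.06 to 0.35) in ImCD8 cells and 0.15 (-0.05 to 0.36) in ImCD4 cells.

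Smad3, one of the Smads that TGFBR1 phosphorylates, had 152, 152 and 159 CPM in dKO ImCD4 cells, against 104, 112 and 118 CPM in Ctrl ImCD4 cells. Each dKO library was above each Ctrl library, and the log2 fold change was 0.47 ± 0.07 (adjusted p = 0.000415; 0.49 without the 4 libraries that stood apart, adjusted p = 0.000892). In ImCD8 cells Smad3 had 74.9, 66.0 and 71.1 CPM in dKO, against 70.1, 62.7 and 67.0 CPM in Ctrl. There the groups overlapped, and the log2 fold change was 0.08 with a 95% interval of -0.08 to 0.24 (adjusted p = 0.637).

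Smad2, the other Smad of that kind, stayed in a narrow band in all libraries, between 85.1 and 106 CPM. It averaged 91.3 ± 5.82 CPM in dKO ImCD8 cells and 95.5 ± 9.44 CPM in Ctrl ImCD8 cells, and 96.6 ± 5.11 CPM in dKO ImCD4 cells and 91.8 ± 2.07 CPM in Ctrl ImCD4 cells. The dKO and Ctrl libraries overlapped in both populations, with 95% intervals for the log2 fold change of -0.23 to 0.11 in ImCD8 cells and -0.10 to 0.24 in ImCD4 cells.

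Smad4, the common partner of the other Smads, had 165, 169 and 156 CPM in dKO ImCD8 cells, against 172, 198 and 187 CPM in Ctrl ImCD8 cells. In ImCD8 cells the dKO libraries were lower without overlap, but the log2 fold change of -0.18 ± 0.07 did not pass the test (adjusted p = 0.146). In dKO ImCD4 cells it had 171, 182 and 168 CPM, against 187, 181 and 174 CPM in Ctrl ImCD4 cells. These overlapped, with a log2 fold change of -0.06 and a 95% interval of -0.20 to 0.09.

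Smad7 encodes the inhibitory Smad of the pathway. It had 157, 149 and 182 CPM in dKO ImCD8 cells, against 139, 154 and 171 CPM in Ctrl ImCD8 cells, and these groups overlapped. It had 15.3, 13.3 and 19.0 CPM in dKO ImCD4 cells, against 8.01, 13.6 and 11.8 CPM in Ctrl ImCD4 cells, which also overlapped. The ImCD4 values rest on 488 counts in the 3 dKO libraries and 302 counts in the 3 Ctrl libraries, far fewer than for the other members. The log2 fold change in ImCD4 cells was 0.50 ± 0.18 with a 95% interval of 0.10 to 0.90, and its adjusted p was 0.0941. DESeq2 gave Smad7 in ImCD4 cells an adjusted p of 0.0337, the fit with no filter 0.000972 and the fit with a term for the 4 libraries that stood apart 0.0162, within a range over 15 alternatives of 0.000972 to 0.288.

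Skil, the gene of the co-repressor SnoN, gave the largest change among the members in ImCD4 cells. It had 139.8, 133 and 134 CPM in dKO ImCD4 cells, against 203, 202 and 232 CPM in Ctrl ImCD4 cells. All dKO libraries were below all Ctrl libraries, and the log2 fold change was -0.65 ± 0.07 (adjusted p = 1.78e-05). Ctrl replicate 3 was the highest library and is among the 4 that stood apart; without those 4 libraries the log2 fold change was -0.57 with an adjusted p of 0.000122. In ImCD8 cells Skil had 198, 194 and 196 CPM in dKO, against 186, 206 and 188 CPM in Ctrl. There the dKO values lay within the span of the Ctrl values, and the log2 fold change was 0.02 ± 0.07 with a 95% interval of -0.13 to 0.17.

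Ski, the relative of Skil, had 337, 359.6 and 379 CPM in dKO ImCD4 cells, against 294, 317 and 329.7 CPM in Ctrl ImCD4 cells. It had 416, 406 and 394 CPM in dKO ImCD8 cells, against 425, 458 and 453 CPM in Ctrl ImCD8 cells. The dKO libraries were higher in ImCD4 cells and lower in ImCD8 cells, each without overlap. Neither difference passed the test, with a log2 fold change of 0.19 ± 0.07 (adjusted p = 0.0743) in ImCD4 cells and -0.14 ± 0.07 (adjusted p = 0.298) in ImCD8 cells. The ImCD4 value passed with limma-voom (adjusted p = 0.0450) and with a term for the 4 libraries that stood apart (adjusted p = 0.0378), in a range over 15 alternatives of 0.0378 to 0.270.

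**Figure D2:**
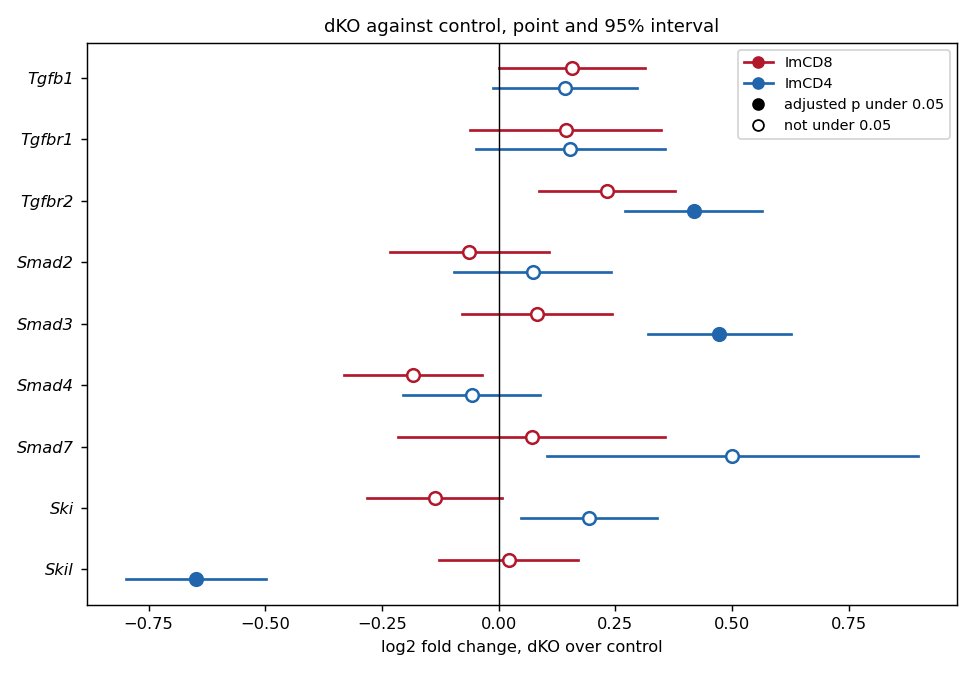
Log2 fold change of dKO over control (x axis) for the 9 genes (y axis), with ImCD8 cells above ImCD4 cells for each gene; points are edgeR estimates, bars are 95% intervals not adjusted for the number of genes, and filled points have an adjusted p under 0.05. Only Tgfbr2, Smad3 and Skil in ImCD4 cells are filled, at 0.42, 0.47 and -0.65.

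In all, the dKO and Ctrl libraries did not overlap for 6 of the 9 genes in ImCD4 cells and for 4 of the 9 in ImCD8 cells, where 33.8% and 21.8% of all genes tested did not overlap. An exact two-sided permutation test of 3 against 3 cannot give a p under 0.1, so none of these counts rests on it. The calls of Tgfbr2, Smad3 and Skil in ImCD4 cells held under each of 15 alternatives, including leaving out any of the 6 libraries compared.

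Other measures moved with the same ImCD4 groups, and their part in these results was not tested. Gene counts were 9319732 to 10943143 in the dKO ImCD4 libraries and 8276742 to 9173424 in the Ctrl ImCD4 libraries. Reads in no gene were 10.5% to 12.9% of tallied reads in the dKO libraries and 13.6% to 16.4% in the Ctrl libraries, and the mitochondrial share of counts was 0.633% to 0.961% in the dKO libraries and 1.07% to 1.31% in the Ctrl libraries. The summed level of 6 markers of regulatory and innate-like T cells was 192 to 300 CPM in dKO ImCD4 libraries, against 30.4 to 32.6 CPM in Ctrl ImCD4 libraries. Sox13, known for its role in gamma delta T cells, made up most of it, at 218 ± 58.7 CPM in dKO and 20.3 ± 1.39 CPM in Ctrl (log2 fold change 3.42, adjusted p = 4.43e-08), and Il2ra averaged 9.34 CPM in dKO and 10.5 CPM in Ctrl. Tcrg-C1, a constant gene of the gamma T cell receptor chain, was also higher, at 4.01 ± 2.64 CPM in dKO and 0.410 ± 0.0813 CPM in Ctrl (log2 fold change 3.24, adjusted p = 0.00203). Foxp3, which defines regulatory T cells, averaged 0.444 CPM in dKO and 0.223 CPM in Ctrl ImCD4 cells, Zbtb16, which defines innate-like T cells, 0.0892 CPM in dKO and 0.192 CPM in Ctrl, and Klrb1c was at 0 in all 3 dKO ImCD4 libraries. Of the T cell, gate and lineage markers, Runx3 (log2 fold change 0.36, adjusted p = 0.0360 by edgeR) and Cd3g (0.30, adjusted p = 0.0233) were higher in dKO ImCD4 cells. Ptprc was lower (-0.21, adjusted p = 0.0464), and the others did not pass. Among those, Zbtb7b was lower (-0.82, adjusted p = 0.0607) and Gata3 higher (0.26, adjusted p = 0.0637), each without overlap.

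The dKO effect itself differed between the populations for 1 of the 9 genes, Skil. The difference of the effects, ImCD8 minus ImCD4, was 0.67 ± 0.10 on the log2 scale for Skil (adjusted p = 0.00449), and only 0.433% of all genes tested passed for such a difference (0.179% higher and 0.254% lower). Without the 4 libraries that stood apart it was 0.57 (adjusted p = 0.0209). The targeted gene Zfp281 also passed for such a difference, at 1.49 ± 0.19 (adjusted p = 0.00170). It was 26.1-fold lower in dKO ImCD4 cells and 9.30-fold lower in dKO ImCD8 cells, and its part in the Skil difference was not tested. For Smad3 the difference was -0.39 ± 0.10 (95% interval -0.61 to -0.17; adjusted p = 0.151) and for Ski -0.33 ± 0.10 (-0.54 to -0.13; adjusted p = 0.203). Both had an unadjusted p under 0.05 and missed the threshold over all genes; Smad3 passed in 1 of 20 alternatives, the fit with a term for the 4 libraries that stood apart (adjusted p = 0.0481, range 0.0481 to 0.391). For Tgfbr2 the difference of -0.19 had an interval of -0.39 to 0.02, so that a dKO effect of like size in both populations and a smaller one in ImCD8 cells both lie within it.

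Skil and Ski can also be set against each other per kilobase of exon within a library. The Skil level was 0.274 to 0.285 of the Ski level in dKO ImCD8 libraries, against 0.238 to 0.258 in Ctrl ImCD8 libraries. It was 0.203 to 0.238 of the Ski level in dKO ImCD4 libraries, against 0.366 to 0.404 in Ctrl ImCD4 libraries. The ratio was thus higher in dKO than in Ctrl in ImCD8 cells and lower in dKO than in Ctrl in ImCD4 cells, with no overlap in either population. For the receptors, the Tgfbr2 level was 2.54 to 2.76 times the Tgfbr1 level in dKO ImCD4 libraries and 2.15 to 2.23 times in Ctrl ImCD4 libraries, also without overlap. In ImCD8 cells that ratio overlapped, at 3.66 to 4.65 in dKO libraries and 3.47 to 4.25 in Ctrl libraries. These ratios are descriptions whose size depends on the exon lengths used, and they carry no test.

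The larger contrasts in these genes lay between the populations. Smad7 was 10.3-fold higher in ImCD8 than in ImCD4 cells in dKO and 13.9-fold higher in Ctrl, Tgfbr2 and Ski were also higher in ImCD8 cells, and Smad3 and Tgfb1 were lower. Of the 9 genes, 4 were higher and 2 lower in dKO, and 3 were higher and 2 lower in Ctrl. Such calls were common among all genes: 43.7% passed in dKO (22.1% higher and 21.6% lower) and 45.3% in Ctrl (23.1% higher and 22.1% lower). The ImCD8 and ImCD4 libraries did not overlap for 6 of the 9 genes in dKO and 5 of the 9 in Ctrl, beside 51.8% and 56.4% of all genes tested. The gates differ in more than CD4 and CD8, since H2-Kb- cells were chosen for ImCD4 and TCRb+ cells for ImCD8, so that lineage and maturation cannot be told apart.

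Smad7 had a log2 fold change, ImCD8 over ImCD4, of 3.36 ± 0.16 in dKO (adjusted p = 1.15e-09) and 3.79 ± 0.17 in Ctrl (adjusted p = 5.58e-10). Its means were 163 ± 17.5 CPM in dKO ImCD8 and 15.9 ± 2.91 CPM in dKO ImCD4 cells, and 155 ± 16.4 CPM in Ctrl ImCD8 and 11.1 ± 2.85 CPM in Ctrl ImCD4 cells. No ImCD4 library came near an ImCD8 library.

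Tgfbr2 averaged 538 ± 20.9 CPM in dKO ImCD8 and 356 ± 20.5 CPM in dKO ImCD4 cells, and 458 ± 27.1 CPM in Ctrl ImCD8 and 266 ± 7.70 CPM in Ctrl ImCD4 cells. The log2 fold change was 0.60 ± 0.07 in dKO (adjusted p = 3.78e-06) and 0.78 ± 0.07 in Ctrl (adjusted p = 1.78e-07). Its partner Tgfbr1 did not pass, with a 95% interval for the log2 fold change of -0.21 to 0.19 in dKO and -0.20 to 0.21 in Ctrl.

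Smad3 ran the other way. It averaged 70.7 ± 4.46 CPM in dKO ImCD8 and 155 ± 4.12 CPM in dKO ImCD4 cells, and 66.6 ± 3.75 CPM in Ctrl ImCD8 and 111 ± 7.11 CPM in Ctrl ImCD4 cells. The log2 fold change was -1.13 ± 0.07 in dKO (adjusted p = 6.54e-09) and -0.74 ± 0.07 in Ctrl (adjusted p = 8.55e-07). Smad2 and Smad4 did not pass in either genotype, with log2 fold changes between -0.09 and 0.05.

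Tgfb1 averaged 217 ± 12.7 CPM in dKO ImCD8 and 306 ± 16.4 CPM in dKO ImCD4 cells, and 195 ± 9.78 CPM in Ctrl ImCD8 and 277 ± 17.3 CPM in Ctrl ImCD4 cells. The ImCD8 libraries were lower in each genotype, with log2 fold changes of -0.50 ± 0.07 in dKO (adjusted p = 4.89e-05) and -0.51 ± 0.07 in Ctrl (adjusted p = 3.61e-05).

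The co-repressors differed between populations in a way that depended on genotype for Skil. In dKO, Skil averaged 196 ± 2.10 CPM in ImCD8 and 136 ± 3.62 CPM in ImCD4 cells, a log2 fold change of 0.53 ± 0.07 (adjusted p = 1.76e-05). In Ctrl it averaged 193 ± 10.88 CPM in ImCD8 and 213 ± 17.2 CPM in ImCD4 cells, a log2 fold change of -0.14 ± 0.07 that did not pass (95% interval -0.29 to 0.01; adjusted p = 0.122). The difference between these lineage contrasts is the one tested above (0.67). With library size alone as the scale, the Ctrl contrast of Skil passed with an adjusted p of 0.0248, in a range over 15 alternatives of 0.0248 to 0.671.

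Ski averaged 405 ± 11.1 CPM in dKO ImCD8 and 359 ± 20.9 CPM in dKO ImCD4 cells, and 446 ± 17.9 CPM in Ctrl ImCD8 and 314 ± 17.8 CPM in Ctrl ImCD4 cells. Ski was higher in ImCD8 cells by 0.51 ± 0.07 on the log2 scale in Ctrl (adjusted p = 1.96e-05). In dKO the log2 fold change was 0.18 ± 0.07 with an adjusted p of 0.0483, and this call was lost in 9 of 15 alternatives, including 5 that left out a single library (range of adjusted p 0.0223 to 0.203).

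**Figure D3:**
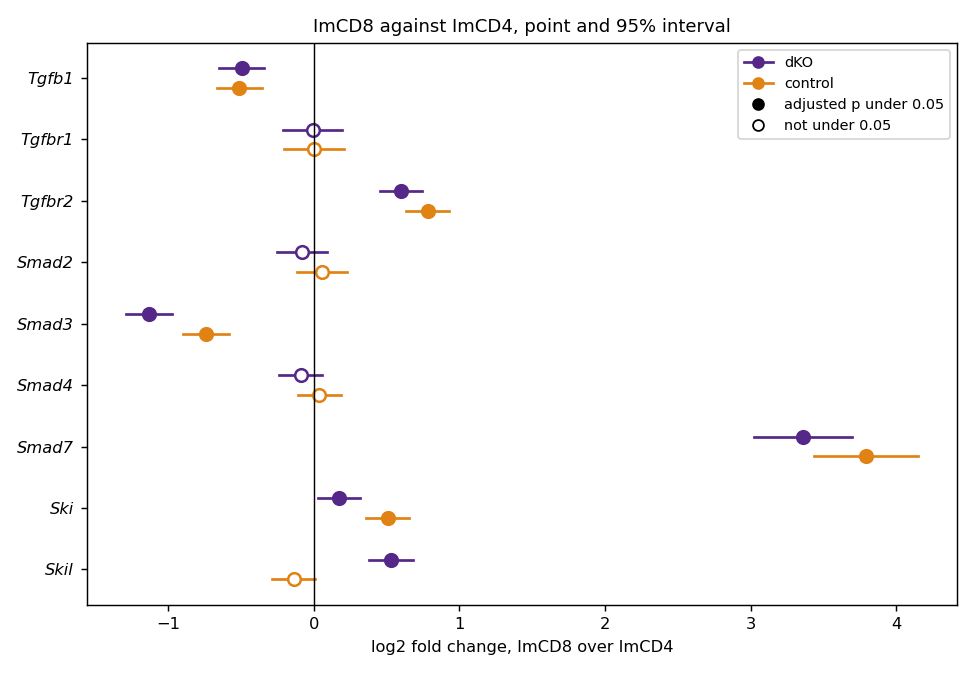
Log2 fold change of ImCD8 over ImCD4 (x axis) for the 9 genes (y axis), with dKO above control for each gene; points are edgeR estimates, bars are 95% intervals not adjusted for the number of genes, and filled points have an adjusted p under 0.05. Smad7 stands at 3.36 in dKO and 3.79 in control, Smad3 at -1.13 and -0.74, and Skil is filled in dKO only, at 0.53 beside -0.14 in control.

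Without the 4 libraries that stood apart, the same lineage contrasts passed as with them. The log2 fold changes of ImCD8 over ImCD4 were then 3.42 in dKO and 3.75 in Ctrl for Smad7, 0.57 and 0.76 for Tgfbr2, -1.11 and -0.70 for Smad3, and -0.42 and -0.50 for Tgfb1. For Ski they were 0.24 in dKO (adjusted p = 0.0276) and 0.53 in Ctrl, and for Skil 0.52 in dKO and -0.05 in Ctrl, where it again did not pass (adjusted p = 0.671). For dKO over Ctrl, the contrasts of the members that had not passed did not pass without these libraries either. The closest was Tgfbr2 in ImCD8 cells, at 0.27 (adjusted p = 0.0661), and Smad7 in ImCD4 cells was at 0.40 (adjusted p = 0.214). The log2 fold changes of dKO over Ctrl in ImCD8 and ImCD4 cells were 0.21 and 0.13 for Tgfb1, 0.19 and 0.19 for Tgfbr1, -0.04 and 0.09 for Smad2, -0.15 and -0.06 for Smad4, and -0.10 and 0.19 for Ski.

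Markers of other cells and a measure of the libraries differed between the populations too, and their part was not tested. The mitochondrial share of counts was 1.27% to 1.70% in dKO ImCD8 and 0.633% to 0.961% in dKO ImCD4 libraries, and 1.12% to 1.47% in Ctrl ImCD8 and 1.07% to 1.31% in Ctrl ImCD4 libraries, which overlapped in Ctrl. The summed level of 6 thymic epithelial markers was 133 to 141 CPM in dKO ImCD8 and 43.1 to 59.95 CPM in dKO ImCD4 libraries, and 125 to 132 CPM in Ctrl ImCD8 and 46.2 to 66.5 CPM in Ctrl ImCD4 libraries. Foxn1, which defines thymic epithelium, was at the floor in each group. It had 2 counts in all in dKO ImCD8 cells (0.0613 CPM), 0 in dKO ImCD4 cells, and 1 in each of the Ctrl ImCD8 and Ctrl ImCD4 groups. Ly75, which dendritic cells also express, averaged 95.1 CPM in dKO ImCD8 and 27.3 CPM in dKO ImCD4 cells. The 6 markers of regulatory and innate-like T cells summed to 13.0 to 14.9 CPM in dKO ImCD8 libraries, against the 192 to 300 CPM of dKO ImCD4 libraries given above. The summed level of 5 B cell markers was 365 to 497 CPM in dKO ImCD8 and 63.8 to 90.2 CPM in dKO ImCD4 libraries, and 309 to 401 CPM in Ctrl ImCD8 and 71.4 to 94.7 CPM in Ctrl ImCD4 libraries. Most of it was Ighm, which averaged 387 CPM in dKO ImCD8 and 70.9 CPM in dKO ImCD4 cells. Ms4a1, which encodes the B cell surface protein CD20, was at 0 in all libraries of the dKO ImCD4 and Ctrl ImCD8 groups.

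Per kilobase of exon, a rough scale for setting different genes side by side, Ski had the highest mean of the 9 genes in each group. The length is the union of annotated exons and the annotation behind the counts is not given, so the order between genes is approximate. It had 72.8 CPM per kb in dKO ImCD8, 80.1 in Ctrl ImCD8, 64.5 in dKO ImCD4 and 56.4 in Ctrl ImCD4 cells. In ImCD8 cells Tgfbr2 came next, at 65.8 CPM per kb in dKO and 56.0 in Ctrl, followed by Smad4, Tgfb1, Smad7, Skil, Tgfbr1, Smad3 and Smad2. Neighbours whose libraries overlapped were Smad4 and Tgfb1 in dKO ImCD8 cells, and Tgfbr2 with Smad4, Tgfb1 with Smad7, and Smad3 with Smad2 in Ctrl ImCD8 cells. In ImCD4 cells Tgfb1 came next to Ski and overlapped with it, at 60.7 CPM per kb in dKO and 55.0 in Ctrl. Smad4 and Tgfbr2 followed, at 46.8 and 43.4 CPM per kb in dKO, where their libraries overlapped, and at 48.7 and 32.5 in Ctrl, where they did not. Smad7 changed place most, being the fifth in both ImCD8 groups (36.0 CPM per kb in dKO and 34.2 in Ctrl) and the last in both ImCD4 groups (3.51 and 2.46). Skil was the fifth in Ctrl ImCD4 cells at 21.9 CPM per kb, where it overlapped with Smad3 at 20.1, and in dKO ImCD4 cells, at 14.0 CPM per kb, it was below both Smad3 (27.9) and Tgfbr1 (16.6). The lowest of the receptor-activated pair, Smad2, stayed at 10.4 to 11.0 CPM per kb in all 4 groups.

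For the 6 members called in some contrast, the 2 genes with the most similar pattern over the 12 libraries were found by the root mean square difference of centred log2 CPM among 8802 genes. The shared patterns given below follow from that choice and are no separate result. Tgfbr2 was closest to Dedd2 (0.0551) and Nsmaf (0.0820). Dedd2 averaged 118 CPM in dKO ImCD8, 103 in Ctrl ImCD8, 80.6 in dKO ImCD4 and 62.1 in Ctrl ImCD4 cells, the same order of groups as Tgfbr2. Tgfb1 was closest to Hmox2 (0.0628) and Ier3ip1 (0.0687), Ski to Dnmt1 (0.0559) and Jak1 (0.0573), and Smad3 to Smim15 (0.108) and Ugdh (0.114). Skil was closest to Zfp182 (0.111) and Zfp652 (0.120). Zfp652 averaged 61.5 CPM in dKO ImCD8, 68.6 in Ctrl ImCD8, 48.4 in dKO ImCD4 and 68.2 in Ctrl ImCD4 cells, and so shared with Skil its lowest level in dKO ImCD4 cells. Smad7, whose SD over the 12 libraries was 1.87 on the log2 scale beside 0.21 to 0.52 for the other 5 members, was closest to Klf2 (0.202) and H2-K1 (0.251), which also had their high levels in ImCD8 cells. H2-K1 encodes the class I chain of H2-Kb, for whose absence the ImCD4 cells were sorted, and averaged 3009 CPM in dKO ImCD8 and 2759 CPM in Ctrl ImCD8 cells, against 294 CPM in dKO ImCD4 and 253 CPM in Ctrl ImCD4 cells.

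Around the 9 genes, 105 other genes of the pathway were listed by role, and 85 passed the filter on low counts. In ImCD4 cells 11 were higher and 14 lower in dKO than in Ctrl, beside 7.26% higher and 6.16% lower among all genes tested. In ImCD8 cells 1 was higher and 9 were lower, beside 2.62% higher and 3.53% lower among all genes tested. The median log2 fold change of the 85 was 0.02 in ImCD4 cells and -0.03 in ImCD8 cells, close to that of all genes (0.02 and 0.01). The counts for the single lists below stand beside 13.4% of all genes tested called in ImCD4 cells and 6.14% in ImCD8 cells.

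Among genes that handle the latent ligand, 2 of 6 tested were higher and 1 lower in dKO ImCD4 cells, and 1 was lower in dKO ImCD8 cells. Itgav, the alpha V chain of integrins that release active TGF-beta, was lower in both populations. It had 23.4, 25.8 and 26.0 CPM in dKO ImCD8, against 42.7, 36.8 and 39.8 CPM in Ctrl ImCD8 cells (log2 fold change -0.66 ± 0.11, adjusted p = 0.00143). In dKO ImCD4 cells it had 22.7, 20.6 and 25.3 CPM, against 36.5, 39.1 and 45.5 CPM in Ctrl ImCD4 cells (-0.82 ± 0.11, adjusted p = 0.000132). Emilin1, a matrix protein known to limit maturation of the ligand, had 158, 194 and 183 CPM in dKO ImCD4, against 102, 111 and 84.5 CPM in Ctrl ImCD4 cells (0.85 ± 0.13, adjusted p = 0.000484). Lrrc32, which holds latent TGF-beta at the cell surface, was the other that rose and is named after its values were seen; it was low, at 4.04 CPM in dKO and 1.60 CPM in Ctrl ImCD4 cells.

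Of the receptors of the wider family, 2 of 13 tested were higher and 3 lower in dKO ImCD4 cells and 2 were lower in dKO ImCD8 cells. Acvrl1, a type I receptor for bone morphogenetic proteins known best from endothelium, had 22.7, 23.5 and 16.7 CPM in dKO ImCD8, against 93.6, 100.01 and 75.1 CPM in Ctrl ImCD8 cells. It had 21.4, 25.4 and 23.7 CPM in dKO ImCD4, against 149, 155 and 165 CPM in Ctrl ImCD4 cells. Acvrl1 was thus 4.25-fold lower in dKO ImCD8 cells (log2 fold change -2.09 ± 0.13, adjusted p = 8.39e-08) and 6.66-fold lower in dKO ImCD4 cells (-2.74 ± 0.12, adjusted p = 1.51e-09). Eng, its co-receptor endoglin, went in opposite directions. It had 48.3, 52.8 and 49.5 CPM in dKO ImCD8, against 67.0, 69.2 and 66.9 CPM in Ctrl ImCD8 cells, and the difference passed (-0.43 ± 0.09, adjusted p = 0.00639). It had 65.2, 58.0 and 57.0 CPM in dKO ImCD4, against 46.4, 45.9 and 38.5 CPM in Ctrl ImCD4 cells, and this difference passed too (0.47 ± 0.09, adjusted p = 0.00227). Acvr1c, a type I receptor for activins, was lower in dKO ImCD4 cells, at 2.12 ± 1.04 CPM beside 6.72 ± 2.66 CPM in Ctrl, and Acvr1 (0.871 and 2.09 CPM, lower) and Acvr2b (3.74 and 1.65 CPM, higher), both named after their values were seen, were at very low levels. The summed level of 6 stromal and endothelial markers was 148 to 168 CPM in dKO ImCD4 and 165 to 178 CPM in Ctrl ImCD4 libraries. Nearly all of it was Pecam1, which averaged 155 CPM in dKO and 169 CPM in Ctrl ImCD4 cells. The others were near 0, such as Cdh5 at 0.0973 CPM in dKO and 0 CPM in Ctrl, and Col1a1 at 0.677 CPM and 1.14 CPM.

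Of the proteins that act on Smads, Smad5, a Smad of the bone morphogenetic protein branch, was lower in dKO ImCD4 cells at 34.5 ± 3.35 CPM, against 47.3 ± 7.51 CPM in Ctrl. Among 16 turnover and adaptor genes tested, 2 were higher and 2 lower in dKO ImCD4 cells and none passed in ImCD8 cells. Pmepa1, a membrane adaptor that captures receptor-activated Smads and is itself raised by TGF-beta, had 31.8, 35.0 and 33.7 CPM in dKO ImCD4, against 24.3, 21.9 and 21.1 CPM in Ctrl ImCD4 cells (0.58 ± 0.09, adjusted p = 0.000312). Nedd4l, a ubiquitin ligase for activated Smads, averaged 65.5 ± 5.10 CPM in dKO and 47.0 ± 7.11 CPM in Ctrl ImCD4 cells. Trim33, a ubiquitin ligase that binds Smads, was lower at 59.5 ± 2.92 CPM in dKO and 77.1 ± 1.96 CPM in Ctrl ImCD4 cells. Usp9x, a deubiquitinase of SMAD4, averaged 235 ± 14.6 CPM in dKO and 283 ± 33.4 CPM in Ctrl ImCD4 cells, and its libraries overlapped.

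Co-repressors and co-activators that work with Ski, Skil or the Smads were lower where they passed, 4 of 15 tested in dKO ImCD4 cells and 2 of 15 in dKO ImCD8 cells. Among all genes tested, 6.16% and 3.53% were lower in these comparisons. The acetyltransferase gene Kat2b was lower in both, at 25.4 ± 3.58 CPM in dKO and 36.9 ± 4.03 CPM in Ctrl ImCD8 cells, and at 15.1 ± 1.83 CPM in dKO and 25.6 ± 1.97 CPM in Ctrl ImCD4 cells. The deacetylase gene Hdac2 passed in ImCD8 cells and not in ImCD4 cells, at 179 ± 14.8 CPM in dKO ImCD8 cells and 224 ± 14.97 CPM in Ctrl ImCD8 cells; the difference between the populations was not called. In ImCD4 cells the acetyltransferases Ep300 and Crebbp and the homeobox co-repressor Tgif2 passed with log2 fold changes of -0.28, -0.26 and -0.67, the last at 4.41 CPM in dKO and 7.02 CPM in Ctrl. In the branch that bypasses Smads, 2 of 12 genes passed in dKO ImCD4 cells, near the 13.4% of all genes tested. They were Tab2, an adaptor of the kinase TAK1, at 31.5 ± 3.42 CPM in dKO and 45.1 ± 3.21 CPM in Ctrl, and the kinase gene Map2k6, at 16.1 ± 3.31 CPM in dKO and 25.4 ± 3.16 CPM in Ctrl. Calls of Smad5, Usp9x, Kat2b in ImCD8 cells, Hdac2, Ep300, Crebbp, Tgif2 and Map2k6 were each lost when at least 1 single library was left out, and those of Usp9x, Hdac2, Ep300 and Tgif2 also without the 4 libraries that stood apart.

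Among 23 tested genes known to respond to TGF-beta, 6 were higher and 1 lower in dKO ImCD4 cells, and 1 was higher and 4 lower in dKO ImCD8 cells. The list holds genes that TGF-beta raises and genes that it lowers, so its counts have no direction of signalling. In ImCD4 cells Il2rb, the shared beta chain of the interleukin receptors IL-2 and IL-15, averaged 69.4 ± 3.09 CPM in dKO and 35.8 ± 2.99 CPM in Ctrl (0.96 ± 0.08, adjusted p = 1.15e-06). Klf2, a transcription factor of T cell emigration, averaged 70.2 ± 4.57 CPM in dKO and 37.1 ± 5.196 CPM in Ctrl, and Gfi1, a repressor that TGF-beta is known to lower in thymocytes, 34.9 ± 4.89 CPM and 21.9 ± 2.21 CPM. Runx3, named after its values were seen, was also higher, at 59.7 ± 6.31 CPM in dKO and 46.7 ± 6.44 CPM in Ctrl ImCD4 cells. Pmepa1, given above, was another that was higher. The gene that was lower in ImCD4 cells and the last one that was higher fell outside the rule for naming and are not described. The response genes named for ImCD4 cells are thus all from the higher side and do not stand for the whole list. In ImCD8 cells the E protein inhibitor Id2 was lower, at 77.6 ± 10.6 CPM in dKO and 195 ± 39.8 CPM in Ctrl (-1.33 ± 0.15, adjusted p = 9.11e-05), and its relative Id3 was higher, at 358 ± 42.2 CPM in dKO and 257 ± 18.7 CPM in Ctrl. The cytotoxic genes Prf1 (17.1 ± 4.32 CPM in dKO and 45.3 ± 13.6 CPM in Ctrl) and Gzmb were lower in dKO ImCD8 cells. Gzmb had 2.03, 1.29 and 1.48 CPM in dKO ImCD8, against 7.51, 3.38 and 16.8 CPM in Ctrl ImCD8 cells. Its log2 fold change was -2.56 with all libraries (adjusted p = 0.00772), -1.80 without Ctrl replicate 3 (adjusted p = 0.0171) and -1.77 without the 4 libraries that stood apart (adjusted p = 0.0300). Itgae, the integrin chain CD103, is the remaining one, named after its values were seen, at 644 ± 62.5 CPM in dKO and 816 ± 4.67 CPM in Ctrl ImCD8 cells.

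**Figure D4:**
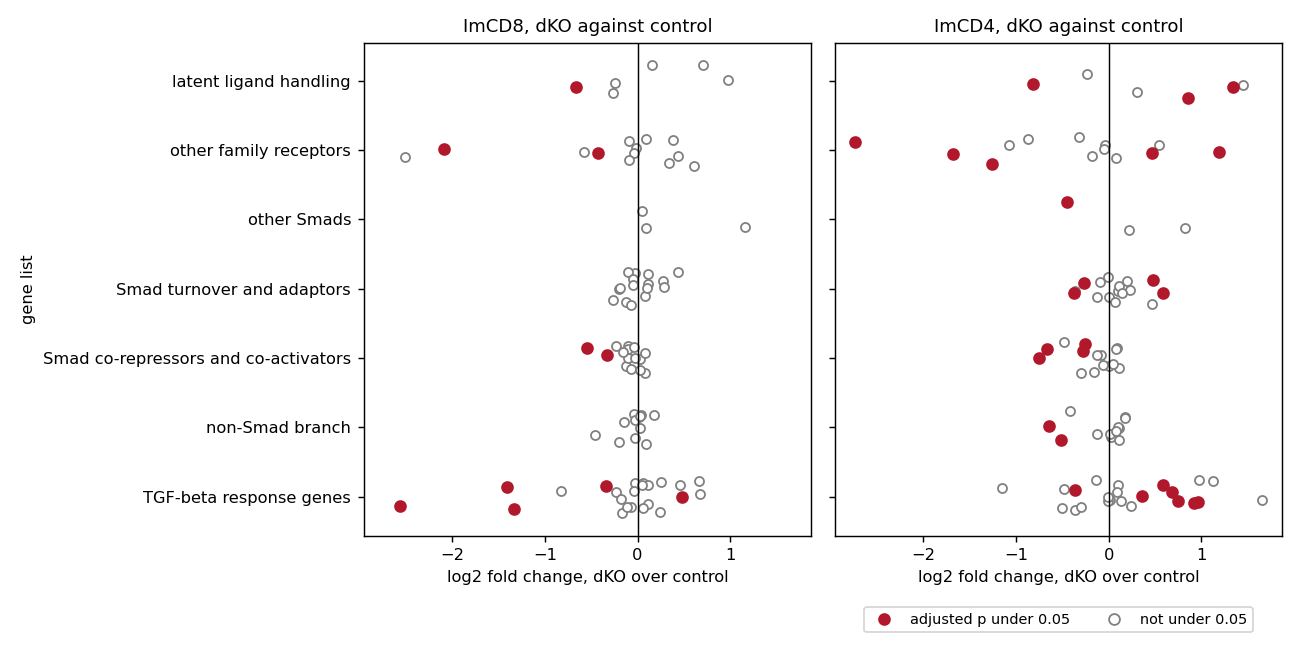
Log2 fold change of dKO over control (x axis) for the tested genes of each list of the TGF-beta pathway (y axis) in ImCD8 cells (left) and ImCD4 cells (right); each point is a gene, and filled points have an adjusted p under 0.05. Acvrl1 is the point farthest to the left among the receptors in ImCD4 cells at -2.74 and the filled one at -2.09 in ImCD8 cells, and Gzmb lies at -2.56 among the response genes in ImCD8 cells.

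In ImCD8 cells, too, other markers moved with the groups, and their part was not tested. The B cell marker Cd79b averaged 25.3 ± 7.59 CPM in dKO ImCD8 cells and 10.1 ± 1.79 CPM in Ctrl ImCD8 cells (log2 fold change 1.32, adjusted p = 0.00370), and the epithelial marker Epcam 16.1 ± 5.38 CPM in dKO and 8.93 ± 0.643 CPM in Ctrl (0.85, adjusted p = 0.0196). Cd40lg (1.01, adjusted p = 0.00421) and Gata3 (0.48, adjusted p = 0.00632), both of the CD4 lineage list, were higher as well. The summed level of 4 CD4-lineage markers was 72.3 to 93.7 CPM in dKO ImCD8 libraries, against 50.9 to 65.2 CPM in Ctrl ImCD8 libraries. That of 6 thymic epithelial markers was 133 to 141 CPM in dKO ImCD8 libraries and 125 to 132 CPM in Ctrl ImCD8 libraries, and that of the 6 regulatory and innate-like markers was 13.0 to 14.9 CPM in dKO ImCD8 libraries and 10.001 to 12.3 CPM in Ctrl ImCD8 libraries.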

How the data were processed

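The deposited values are raw whole-number read counts per gene symbol in 12 libraries, with no normalization by the authors. Per the labels' protocols, RNA was purified on micro-scale columns and made into SMARTer low-input libraries. The authors' tools were HTSeq, STAR 2.6.1 and cutadapt 1.18 on mm10, per the submitters' processing notes, with an annotation and strand setting not given in the sources used here, and reads of antisense genes cannot be told apart. Each library's 5 summary rows were left out of all sums and fits; among tallied reads, reads in no gene were 10.5% to 16.4%, ambiguous reads 5.37% to 5.82% and reads with several alignments 3.87% to 5.39%.

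Genes were kept by filterByExpr (minimum count 10, minimum total 15), which left 13383. All 12 libraries entered 1 edgeR 4.0.16 quasi-likelihood fit in R 4.3.3 (TMM factors 0.946 to 1.04, 4 group means, robust), with 8 residual degrees of freedom before moderation. Tests were two-sided and p-values were adjusted by Benjamini-Hochberg over all genes, with a threshold of 0.05. Levels are CPM of the TMM-scaled library size, and per kilobase levels divide by the union of exons in GENCODE on GRCm38. The steps were tested on simulated data. Alternatives were DESeq2 1.42.0, limma-voom (limma 3.58.1), RLE factors, unscaled library sizes, other filters, the compared libraries alone, each library left out, and replicate 3 of all groups left out or given a term.

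Groups follow the titles, and replicate numbers follow record order. Separate animals are not stated, and p-values therefore reflect only how far these libraries spread, which may be technical. Within-group pairs differed by more than counting noise (chi-square per degree of freedom at least 3.84), and each counted as its own sample. The members and lists were chosen with earlier results of these data known. Pathway genes are named if called in a dKO contrast with at least 5 CPM in the higher group, up to 4 per list and contrast by smallest p; the similar genes are the 2 nearest with a mean of at least 5 CPM. Ccn2 was matched as Ctgf.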

Additional observations from a re-analysis of the deposited data

Results flagged for a closer look

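Among the 9 members and the 85 other pathway genes tested, 5 had a dKO effect that differed between the populations by the interaction test of edgeR, which called 58 genes (0.433%) of all 13383, with values for ImCD8 minus ImCD4 on the log2 scale. The difference was 0.67 for Skil, where dKO was lower in ImCD4 cells and within the Ctrl span in ImCD8 cells. It was -1.57 for Id2, lower in dKO ImCD8 cells, and -1.07 for Il2rb, higher in dKO ImCD4 cells. It was -1.09 for Emilin1, higher in dKO ImCD4 cells, and -0.89 for Eng, lower in dKO ImCD8 cells and higher in dKO ImCD4 cells. The directions in ImCD8 cells rest on the titles, against the genotype labels.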

How the results depend on the processing

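No paired analysis was possible because the labels give no replicate number shared between groups, and the term for the 4 libraries apart follows record order, not a stated pairing. No value changed sign past its threshold under an alternative. Of the single-gene values under alternatives, 1077 kept their side of the threshold, 12 newly passed and 49 no longer passed. The count of members called moved with these settings: in ImCD8 dKO it was 0 and became 1 (Tgfbr2) with DESeq2, limma-voom, no filter, the stricter filter and the term for the 4 libraries apart, in ImCD4 dKO 3 became 5 with that term (Smad7 and Ski added), and for the difference 1 became 2 (Smad3 added). Leaving out 1 library gave 0 members in ImCD8 dKO, 3 in ImCD4 dKO, 1 for the difference, 5 in the Ctrl lineage contrast and 5 to 6 in the dKO one. Among all genes the difference called 58, against 140 with DESeq2, 233 with no filter, 106 without the 4 libraries apart and 200 with the term (39 to 65 with 1 library out). The ImCD8 dKO count was 822, against 1280 with no filter and 1420 with the term (473 to 838 with 1 library out, 473 without Ctrl ImCD8 replicate 1). The ImCD4 dKO count was 1797, against 2461 with limma-voom and 2679 with the term (1055 to 1482 with 1 library out, 1055 without dKO ImCD4 replicate 2 and 1086 without Ctrl ImCD4 replicate 1). Calls of all genes thus rose with the term too, as those of the members did. The lineage counts were 5853 in dKO (4953 to 5454) and 6058 in Ctrl (5323 to 5569). Of the other pathway genes the difference called 4, against 7 with no filter, 8 without the 4 libraries apart and 8 with the term (4 to 6). In ImCD8 dKO 10 became 17 with the term (8 to 11), and in ImCD4 dKO 25 became 18 to 19 with 1 library out; the lineage counts of 44 in dKO and 50 in Ctrl became 39 to 43 and 44 to 50. Fewer libraries or tests enter some of these settings, and otherwise the cause was not tested. The fit of only the libraries compared was not run for the difference; elsewhere it ended the call of Gzmb in ImCD8 cells (adjusted p = 0.0545). Smad7 in ImCD4 cells is the member that depth limits most, and intervals on it are wide.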
